A study of Mus musculus with 24 samples.

Results

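The colon of SCID mice that had received activated T cells and the vehicle of a drug trial was set against the colon of untreated SCID mice, with 4 libraries in each group, 8 of the 24 libraries of the series. In the Vehicle group, female C.B-17/Icr-scid/scid mice aged 7 weeks were injected with 200000 CD4+ cells on day 0. The cells came from spleens of female BALB/c mice and had been activated for 3 days with concanavalin A at 4 ug/mL and interleukin-2 at 10 ng/mL. These mice were allocated by diarrhea score on day 17, were given 0.5% methylcellulose, and gave their distal colon on day 28. The Normal mice were of the same strain and sex, with an age also given as 7 weeks, and had neither cells nor vehicle. The day on which their colon was taken is not given, so age at sampling may differ between the groups. The effects of the cells, the vehicle, the handling and any difference in age at sampling cannot be told apart. The time of day of sampling is not given in the sources used here, and the labels do not say that replicates were separate animals. The p-values therefore measure only the spread between libraries, which the gene tests estimated over all 24 libraries of the series.

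SCID mice lack mature T and B cells because they cannot rearrange antigen receptor genes, and T cells given to them expand against the gut flora. In the colitis that follows, the T cells and the myeloid cells they recruit release interferon gamma, TNF and interleukin-1, which act on epithelium, stroma and vessels. Healthy distal colon epithelium takes up salt and water, burns butyrate made by bacteria, and covers itself with mucus from goblet cells.

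Libraries held 4102817 to 5271844 counts in the Vehicle group and 3052940 to 5358259 in the Normal group. As a check on the labels, 13 T cell genes summed to 1175, 1323, 797 and 1332 counts in the 4 Vehicle libraries, against 55, 40, 91 and 67 in the 4 Normal libraries. The groups stood far apart when each sample's own file gave its group. A table of the whole series names 16 of its 24 columns otherwise, 6 of them Vehicle or Normal. Under those names the same sum ran between 67 and 904 counts in Vehicle and between 40 and 832 in Normal, and edgeR called no gene, with 455 genes at an unadjusted p under 0.05. The samples' own files were used throughout.

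Of 14773 genes tested with edgeR's quasi-likelihood test, 6853 passed a Benjamini-Hochberg adjusted p of 0.05 (46.4%), of which 3416 were higher in Vehicle (23.1%) and 3437 were lower (23.3%). These shares are the background for the gene lists that follow, and the median log2 fold change of all tested genes was 0.00. A change beyond 2-fold passed its own test (TREAT) for 1357 genes (9.19%), 765 higher (5.18%) and 592 lower (4.01%). A further measure counted genes whose 95% interval lay within 1.5-fold in either direction. These held genes numbered 3179 (21.5%), of which 90 were also called (0.609%). The remaining 4831 genes (32.7%) were neither called nor held, so for them the data show neither a change nor its absence. In 6412 genes (43.4%) the ranges of the groups did not overlap.

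**Figure D1:**
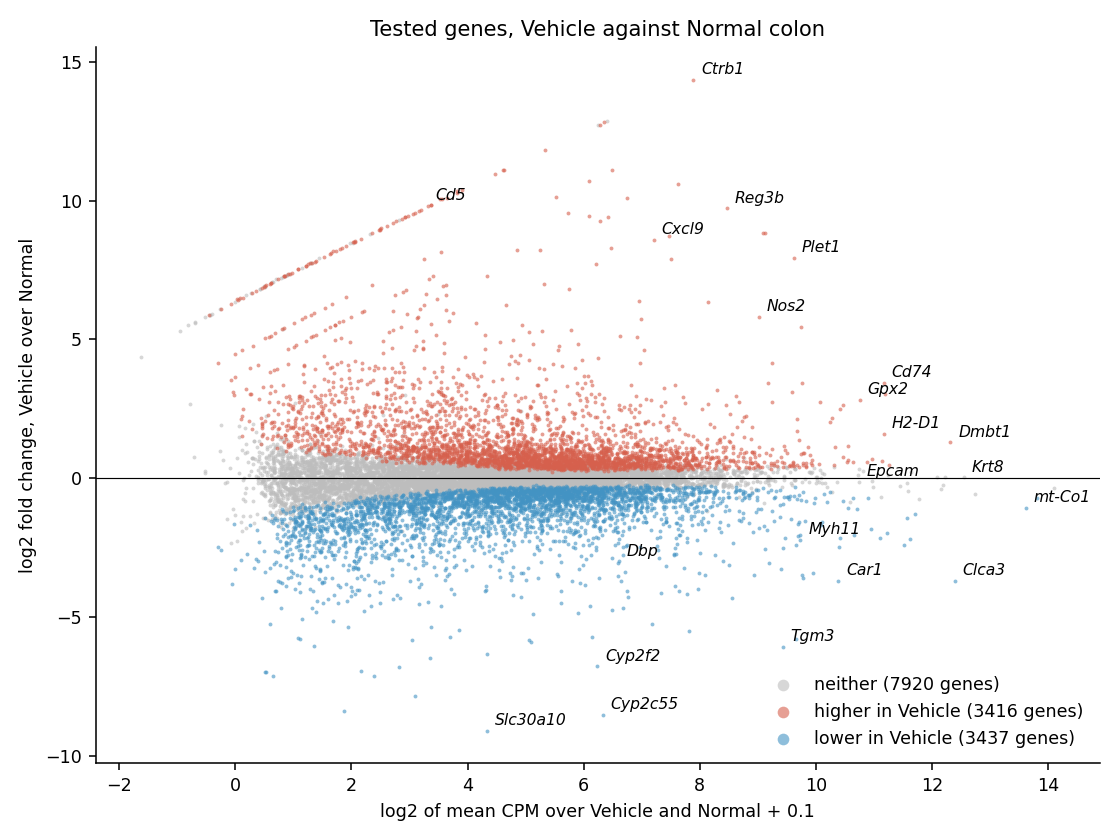
Each point is a gene, with the log2 of its mean level over both groups, in counts scaled to a library of 1000000 (CPM), plus 0.1 on the x axis and the fitted log2 fold change, Vehicle over Normal, on the y axis. The 3416 red genes were called higher in Vehicle and the 3437 blue genes lower, and the diagonal line of points at the upper left holds genes with no count in Normal.

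Genes with no count in 1 of the groups were mostly at 0 in Normal. A gene entered the test when at least 4 of all 24 libraries passed the filter on low counts, so genes raised in other groups given cells could enter. Among the tested genes, 114 had no count in any Normal library, and 67 of these had counts in every Vehicle library, whereas 4 had none in any Vehicle library. Cd5, a surface protein of T cells, had 24.7, 20.1, 13.9 and 20 CPM in Vehicle and no count in Normal, so it was at least 119-fold higher against a floor of 3 counts over the group. Trac, the constant part of the T cell receptor alpha chain, was at least 87.5-fold higher, Slfn1, a schlafen gene of lymphoid cells, at least 90.4-fold, and the neutrophil attractant Cxcl2 at least 90.4-fold. Ly6d, a small surface protein of the Ly6 family, reached 25.4, 23.9, 26.3 and 17.5 CPM in Vehicle and had no count in Normal, at least 138-fold. All 4 Vehicle libraries carried each of these 5 transcripts. Such floors and the ratios given for 1 to 3 counts cover counting error only.

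In the other direction the 4 tested genes with no count in Vehicle were Gsdmc, a gasdermin, at least 17.5-fold lower, and Oaz3, Gm2061 and Gm6939, named after their values were seen. Slc30a10 (chr1:185454848-185468762, GRCm38), which encodes an exporter of manganese and overlaps Gm2061 on the other strand, was close to absent in Vehicle. It had 0, 0.190, 0 and 0 CPM in Vehicle, against 30.5, 39.6, 48.0 and 41.8 CPM in Normal. A single read in 1 Vehicle library was left, and the ratio of normalised counts was 759-fold lower in Vehicle (95% exact counting interval 136 to 30022). Aadac, an esterase of the endoplasmic reticulum, also had 1 count over the 4 Vehicle libraries, 308-fold lower (54.9 to 12208). Klk15, a kallikrein protease, was 131-fold lower (35.9 to 1087), and Smpx, a small protein of striated muscle, 178-fold lower (31.5 to 7059). Fcrls, a scavenger receptor of the Fc receptor-like family, was 43.5-fold lower (14.5 to 214).

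Interferon-inducible GTPases, which attack the vacuoles of intracellular microbes, were higher for 18 of 18 tested members, with a median log2 fold change of 3.95. Their summed level was 2153 to 2423 CPM in Vehicle and 207 to 279 CPM in Normal. Tgtp1 had 107, 98.4, 117 and 103 CPM in Vehicle, against 0.866, 0, 0.747 and 1.65 CPM in Normal. The 4 Vehicle libraries lay close together and far above the Normal ones, a log2 fold change of 6.83 ± 0.54 (SE, n = 4 each, edgeR quasi-likelihood with Benjamini-Hochberg adjustment, adjusted p = 1.11e-08). Tgtp2 rose by 5.29, but Tgtp1 and Tgtp2 are nearly identical copies, so the split of reads between them is uncertain. Iigp1, of the same immunity-related family, had 275, 208, 239 and 279 CPM in Vehicle, against 4.55, 8.84, 3.36 and 2.67 CPM in Normal. Among guanylate-binding proteins the log2 fold change was between 1.78 for Gbp9 and 4.33 for Gbp4.

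Promoters of GTPases are shown because their members moved together, beside those of MHC class I genes. In both lists the genes with the smallest p were taken among those with a match of a motif. Every promoter shown therefore holds a match by construction. Each is the RefSeq sequence of GRCm38.p6 that covers 250 bases before and 50 after the annotated start, 5′ to 3′ on the gene's own strand. Capitals mark matches of TTCNNNGAA, the letters of a STAT binding motif, and of an interferon-stimulated response element, here GAAA, any 2 bases and GAAA again, both searched on both strands. No matches overlap in the sequences shown. The first 3 lines are GTPases and the last 2 are MHC class I genes.
Irgm2: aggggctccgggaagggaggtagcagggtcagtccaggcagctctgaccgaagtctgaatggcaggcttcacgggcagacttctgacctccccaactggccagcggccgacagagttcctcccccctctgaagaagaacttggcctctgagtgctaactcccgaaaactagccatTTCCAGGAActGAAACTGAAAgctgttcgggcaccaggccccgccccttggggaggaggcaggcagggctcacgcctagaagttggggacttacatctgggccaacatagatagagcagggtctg
Tgtp2: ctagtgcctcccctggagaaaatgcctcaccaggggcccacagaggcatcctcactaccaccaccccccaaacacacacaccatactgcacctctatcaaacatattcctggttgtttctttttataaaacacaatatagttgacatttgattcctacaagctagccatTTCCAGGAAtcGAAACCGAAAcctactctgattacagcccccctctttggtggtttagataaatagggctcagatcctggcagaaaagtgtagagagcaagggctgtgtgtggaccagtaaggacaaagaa
Tgtp1: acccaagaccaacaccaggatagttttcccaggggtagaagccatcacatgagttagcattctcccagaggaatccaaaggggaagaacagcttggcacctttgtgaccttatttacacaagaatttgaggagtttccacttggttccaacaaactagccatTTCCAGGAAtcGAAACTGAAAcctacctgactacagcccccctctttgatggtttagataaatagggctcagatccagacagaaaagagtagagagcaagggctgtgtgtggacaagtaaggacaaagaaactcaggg
B2m: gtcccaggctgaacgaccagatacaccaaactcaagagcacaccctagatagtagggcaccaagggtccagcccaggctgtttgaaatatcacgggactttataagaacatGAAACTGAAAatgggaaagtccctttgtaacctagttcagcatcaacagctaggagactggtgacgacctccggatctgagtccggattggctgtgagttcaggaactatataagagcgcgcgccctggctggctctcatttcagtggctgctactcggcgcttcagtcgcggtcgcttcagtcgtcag
H2-T23: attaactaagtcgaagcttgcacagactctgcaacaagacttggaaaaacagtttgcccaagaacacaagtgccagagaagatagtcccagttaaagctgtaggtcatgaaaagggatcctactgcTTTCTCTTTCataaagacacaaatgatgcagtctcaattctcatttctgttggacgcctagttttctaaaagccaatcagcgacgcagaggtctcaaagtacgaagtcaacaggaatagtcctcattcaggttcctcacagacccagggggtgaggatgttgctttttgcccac

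These promoters lie at chr11:58214727-58215026 on the plus strand for Irgm2, chr11:49064163-49064462 on the minus strand for Tgtp2, and chr11:48992197-48992496 on the minus strand for Tgtp1. B2m lies at chr2:122147437-122147736 on the plus strand and H2-T23 at chr17:36032652-36032951 on the minus strand. In all 3 GTPase promoters the motifs stood in the same order with 2 bases between them, and the STAT motif began at base -75, -81 and -88 from the start of Irgm2, Tgtp2 and Tgtp1. In H2-T23 the match was on the opposite strand. Of 27025 promoters, 9.55% held TTCNNNGAA, 3.99% held the response element and 0.540% held both. Of the 10 GTPases with a RefSeq promoter, 6, 9 and 6 did so. Of the 15 MHC class I genes with one, 1, 4 and 0 did so, and only 5 held either motif. Among 2433 matched genes that were higher in Vehicle the shares were 9.58%, 5.75% and 1.11%, and among 2485 that were lower they were 7.24%, 2.82% and 0.282%. Only 5 of the 146 promoters with both motifs had them 2 bases apart in this order. They were those of Irgm2, Tgtp1, Tgtp2, Igtp and the predicted gene Gm12185, and all 5 genes were called higher. The order and gap were those of the 3 GTPase promoters shown, whose genes had the smallest p among GTPases with a match. Those 3 are thus among the 5 by construction, and 4 of the 5 are on the GTPase list. The 5 are not independent cases and do not test a link between the spacing and the calls. A match of letters is a description and does not show that a factor binds there.

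MHC class I genes, which show peptides from inside the cell to T cells, were higher for 17 of 18 members (median 1.33), and the chaperone Canx was not called. H2-K1, a class I heavy chain, had 1821, 2241, 2036 and 2112 CPM in Vehicle, against 436, 446, 483 and 418 CPM in Normal. B2m, the shared light chain, had 1772, 2048, 1876 and 2142 CPM in Vehicle, against 372, 632, 396 and 452 CPM in Normal. Replicates lay close together apart from the higher Normal replicate 2 in B2m, and the groups did not overlap in either gene. Nlrc5, the transcriptional activator of class I genes, reached 64.0, 67.9, 47.0 and 50.6 CPM in Vehicle, against 2.60, 2.62, 3.73 and 1.23 CPM in Normal, a log2 fold change of 4.44 ± 0.36 (SE, n = 4 each, edgeR adjusted p = 5.68e-09). Class I heavy chains are close copies of each other, so reads may be shared between them.

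The proteasome, which makes the peptides that class I presents, rose in each gene tested. The 6 immunoproteasome and activator genes all rose (median 1.68), with Psmb8 up 3.16 and Psmb9 up 3.25 on the log2 scale. Core subunits that the immune forms replace or join, all 14 of them, rose too, by less (median 0.80), between 0.47 for Psmb1 and 1.33 for Psma5. With an offset for transcript length, which is described at the end, 13 of the 14 stayed called.

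Chemokines that draw T cells and neutrophils were among the steepest differences. Of 12 tested CXC chemokines, 11 rose, with a median of 4.87, or 4.71 with members at 0 held at their bound. Cxcl9 (chr5:92321347-92328079) encodes a ligand of Cxcr3, a chemokine receptor of T cells. It had 331, 313, 202 and 336 CPM in Vehicle, against 1.73, 0.328, 0.373 and 0.411 CPM in Normal. Vehicle replicate 3 was the lowest of its group and still stood far above every Normal library (log2 fold change 8.58 ± 0.89, SE, n = 4 each, edgeR adjusted p = 8.19e-07). Its partner Cxcr3 was 89.4-fold higher (15.7 to 3569) and Cxcr2, the neutrophil receptor for Cxcl2 and Cxcl5, at least 47.6-fold. Among 16 CC chemokines 9 rose and Ccl6 fell, and among 16 chemokine receptors 10 rose and 2 fell, the scavenging receptors Ackr3 and Ackr4. In bulk tissue, more or fewer cells of a type and more or less RNA per cell cannot be told apart.

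Cytokine systems moved by member. In the interleukin-1 family 8 of 14 rose and 2 fell. Il1b, the secreted fever cytokine, had 116, 69.2, 54.4 and 220 CPM in Vehicle, against 2.81, 5.24, 3.92 and 3.91 CPM in Normal. Vehicle libraries differed among themselves but none came near the Normal range. Il18, made in resting epithelium, fell by 1.87 on the log2 scale while its soluble inhibitor Il18bp rose by 3.59. Of 9 interleukin-6 family genes 5 rose, among them the receptor Osmr (1.49) and the stromal cytokine Il11, 58.0-fold higher (10.0 to 2329). The TNF superfamily had 12 of 14 higher, with Tnf itself up 4.67, its receptor Tnfrsf1b up 2.45 and the T cell ligand Tnfsf11 up 2.85.

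T cell costimulation and its brakes rose together. Of 16 tested receptors and ligands 13 were higher and none was lower (median 2.76). Ctla4 and Pdcd1, inhibitory receptors of activated T cells, were at least 11.7-fold and 16.2-fold higher, with no count in Normal, and Cd274, the ligand of Pdcd1, rose by 2.90. Genes of feedback on cytokine receptors rose in part. Socs1, an inhibitor of JAK kinases, had 50.5, 44.8, 48.7 and 39.2 CPM in Vehicle, against 2.16, 0.983, 0.747 and 1.85 CPM in Normal, a log2 fold change of 4.92 ± 0.76 (SE). Jak1, Jak2, Stat3 and Stat5b were held within 1.5-fold.

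Enzymes that make reactive oxygen and nitrogen were higher for 13 of 14 members (median 2.16). Nos2, inducible nitric oxide synthase, had 1110, 1239, 845 and 869 CPM in Vehicle, against 23.8, 17.7, 18.5 and 11.1 CPM in Normal. The groups were far apart beside the spread within each (5.80 ± 0.59, SE, n = 4 each, edgeR adjusted p = 5.06e-07). The subunits of the phagocyte oxidase rose (Cybb 3.15, Ncf4 3.44), and so did the epithelial oxidases Nox1 (2.41) and Duox2 (1.40). Ido1, which opens the kynurenine route from tryptophan, had 461, 263, 255 and 468 CPM in Vehicle, against 1.73, 0.983, 2.24 and 0.617 CPM in Normal. Against this rise of 7.90, the amino acid importer Slc6a14 had 58.7, 104, 129 and 65.9 CPM in Vehicle and 279, 581, 346 and 430 CPM in Normal, a fall of 2.23 on the log2 scale.

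Of 13 genes of inflammasomes, gasdermins and necroptosis 7 were higher and 6 lower (median 0.53). Ripk3, Mlkl and Zbp1, which carry out necroptosis, rose by 2.62, 2.01 and 2.21, and Ripk3 had 217, 208, 212 and 228 CPM in Vehicle, against 52.0, 25.2, 33.8 and 25.1 CPM in Normal. Gsdmd, the pore protein cut by inflammatory caspases, had 246, 265, 252 and 263 CPM in Vehicle, against 159, 135, 158 and 142 CPM in Normal, a small and even rise (0.75 ± 0.12, SE). The gasdermin C genes went the other way. Gsdmc2, found in colon epithelium, had 1.49, 3.79, 15.4 and 2.32 CPM in Vehicle, against 136, 121, 154 and 122 CPM in Normal (-4.61 ± 1.13, SE). Gsdmc3 fell by 5.91 and Gsdmc4 by 4.90, but these copies are alike and may share reads.

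Innate sensing and complement were higher in part. Of 23 Toll-like and NOD-like genes 12 rose and 3 fell (median 0.51), or 12 and 1 with the length offset. Nod2, a sensor of bacterial cell wall, rose by 3.87 and Tlr2, a lipoprotein receptor, by 2.21, whereas Tlr5, the flagellin receptor, fell by 2.60, and 5 members, among them Naip1 and Tlr3, were held. Complement had 14 of 19 higher, with C3, the central component, up 2.73, and 3 lower, of which Cfd, an adipocyte protease, fell by 3.28. Homing molecules were higher for 11 of 14 (median 2.08). Madcam1, the gut address on vessels, rose by 2.27 and Itgb7, a chain of its receptor, by 2.89, while the vessel marker Pecam1 was held (0.03).

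**Figure D2:**
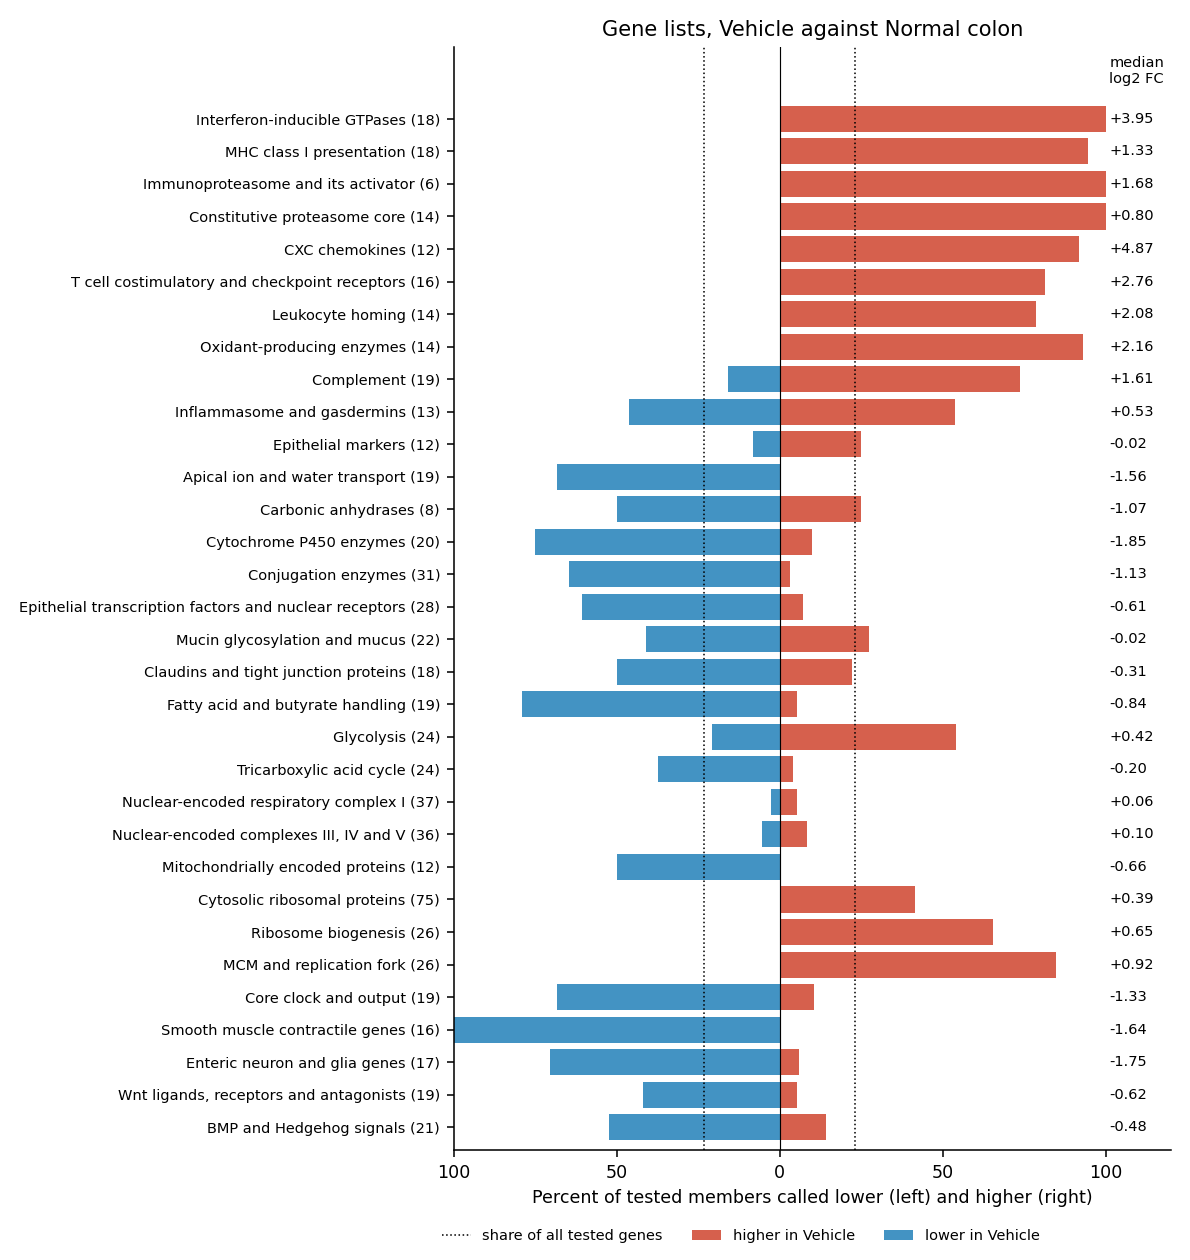
Bars give the percent of tested members of each gene list that were called lower (left) or higher (right) in Vehicle than in Normal, with the number tested in brackets and the median log2 fold change at the right. Dotted lines mark the shares of all tested genes, 23.3% lower and 23.1% higher. Immune lists lie to the right, except that of inflammasomes and gasdermins, which extends to both sides (7 of 13 higher and 6 lower). Epithelial transport, detoxification, clock, muscle and nerve lists lie to the left, and the respiratory complexes near the centre.

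Immunoglobulin transcripts appeared in the Vehicle colon, although SCID mice lack B cells. Igha, the IgA heavy chain, had 2783, 733, 314 and 619 CPM in Vehicle, against 0.649, 0, 6.91 and 0.823 CPM in Normal. Igkc, the kappa light chain, had 2647, 673, 417 and 633 CPM in Vehicle, against 0, 0.328, 7.28 and 0.617 CPM in Normal. Vehicle replicate 1 was far above the rest of its group and Normal replicate 3 far above the rest of its own, in both chains, and the groups did not overlap. Ighg1 had 103, 34.7, 5.36 and 34.1 CPM in Vehicle and no count in Normal, at least 270-fold higher. Of 7 tested B and plasma cell markers 6 rose, with Mzb1, a plasma cell chaperone, at least 48.2-fold higher, while Ms4a1 and Pax5, which mark B cells, were too low to test (a mean of 0.0533 CPM in Vehicle for each). The labels say nothing of B cells among the transferred cells.

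Markers of other leukocytes were also higher. Neutrophil markers rose in 13 of 15 (median 5.16, or 4.49 with members at 0 held at their bound), with a summed level of 788 to 1525 CPM in Vehicle and 243 to 457 CPM in Normal. Ly6g, a surface marker of neutrophils, was an exception, with 186, 308, 307 and 276 CPM in Vehicle and 439, 336, 222 and 249 CPM in Normal. Those ranges overlap and no difference was called (-0.25 ± 0.23, SE, edgeR adjusted p = 0.398). Ly6g made up most of the neutrophil sum in Normal, a mean of 312 of 330 CPM, against 269 of 1062 CPM in Vehicle. The sums therefore understate the rise of the other neutrophil markers. Macrophage and monocyte markers rose in 9 of 12 (median 1.97), and Cd163 and Mrc1, of resident macrophages, were not called. Mast cell protease Mcpt2 was 340-fold higher (116 to 1651), while Kit, the receptor of mast cells and of pacemaker cells of the gut wall, fell by 1.38. The cytotoxic protease Gzmb was 178-fold higher (31.5 to 7063).

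Epithelial identity markers were largely level between the groups. Of 12 markers 3 rose, 1 fell and 5 were held within 1.5-fold (median -0.02). Krt8, a keratin of simple epithelium, had 5113, 6586, 7763 and 4993 CPM in Vehicle and 7358, 4497, 5816 and 5703 CPM in Normal. Epcam, a surface adhesion molecule, had 1556, 1504, 1801 and 1751 CPM in Vehicle and 1727, 1828, 1686 and 1818 CPM in Normal. In both genes the groups overlapped and the interval lay within 1.5-fold. Cdh1, E-cadherin, was the marker that fell, with 591, 637, 630 and 613 CPM in Vehicle, against 1040, 1014, 1017 and 1007 CPM in Normal, a tight difference of -0.76 ± 0.12 (SE, n = 4 each, edgeR adjusted p = 5.10e-05).

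Against these level markers, the machinery of absorption fell. None of 19 apical ion and water transport genes rose and 13 fell (median -1.56). Aqp8, a water channel of colonocytes, had 46.1, 112, 107 and 57.5 CPM in Vehicle, against 1245, 661, 731 and 943 CPM in Normal. Car1, a carbonic anhydrase that supplies bicarbonate and protons, had 232, 167, 126 and 265 CPM in Vehicle, against 2061, 2754, 2842 and 2253 CPM in Normal. Every Vehicle library lay below every Normal library in both genes, with log2 fold changes of -3.50 ± 0.94 and -3.70 ± 0.66 (SE). Car12 and Car13 rose by 0.89 and 0.83, so the family did not move as one. Slc12a2, the basal chloride importer, and Kcnn4, a potassium channel of secreting cells, were held.

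Proteins of the cell surface changed unevenly. Mep1a, a brush border protease, had 23.5, 18.2, 12.4 and 17.9 CPM in Vehicle, against 219, 327, 306 and 367 CPM in Normal (-4.13 ± 0.86, SE). Vil1, the villin that bundles microvillus actin, was held (-0.17), and among 21 brush border genes 10 fell and 4 rose. In tight junctions 9 of 18 fell, including occludin (Ocln, -1.33) and Tjp1 (-0.97), and 4 rose, including Cldn4 (1.51), while Cldn2 and Cldn3 were held. Tgm3 (chr2:130012349-130050399), a transglutaminase, had 7.04, 43.1, 23.4 and 7.37 CPM in Vehicle, against 1396, 1391, 1366 and 1294 CPM in Normal. Its Normal libraries were alike. Its Vehicle libraries differed among themselves by several-fold, yet the highest stayed far below Normal (-6.09 ± 1.29, SE, edgeR adjusted p = 0.00104).

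Goblet cell products went in opposite directions. Muc2, the gel-forming mucin, had 2804, 3121, 4219 and 3725 CPM in Vehicle and 2533, 3115, 3568 and 2493 CPM in Normal. The ranges overlapped and no change was called (0.21 ± 0.24, SE, edgeR adjusted p = 0.494). Clca3, whose protein is secreted into the mucus, had 343, 942, 1119 and 720 CPM in Vehicle, against 5929, 12115, 10399 and 11436 CPM in Normal, a fall of 3.71 on the log2 scale. The mucus proteins Fcgbp, Zg16 and Tff3 fell by 2.19, 2.41 and 1.68. Retnlb, a bactericidal goblet cell protein, had 152, 355, 597 and 388 CPM in Vehicle, against 26.6, 61.9, 48.9 and 55.1 CPM in Normal, a rise of 2.92. Of membrane mucins, Muc4 had 263, 230, 264 and 346 CPM in Vehicle, against 73.0, 70.4, 94.8 and 52.0 CPM in Normal, and Muc3 had 656, 894, 995 and 1004 CPM in Vehicle, against 2323, 3221, 3160 and 3540 CPM in Normal. Muc1 and Muc4 rose, Muc3 fell and Muc13 was held.

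Secreted defence proteins likewise split, with 7 of 14 up and 7 down. Reg3b, a lectin that binds bacteria, had 230, 1177, 368 and 1047 CPM in Vehicle, against 1.73, 1.31, 0.187 and 0.206 CPM in Normal. Reg3g, which kills gram-positive bacteria, had 134, 582, 207 and 499 CPM in Vehicle, against 1.30, 2.29, 0 and 0.206 CPM in Normal. Vehicle replicates 2 and 4 were high and 1 and 3 lower in both genes, and reads may be shared between these related copies. Ang4, an antimicrobial ribonuclease, had 0, 3.60, 4.87 and 0.632 CPM in Vehicle, against 7.36, 77.6, 41.2 and 22.2 CPM in Normal (-4.05 ± 1.17, SE). Pla2g2a, a phospholipase that lyses bacteria, had 3676, 4332, 3636 and 5058 CPM in Vehicle, against 579, 672, 420 and 292 CPM in Normal, a rise of 3.05. Dmbt1, a mucosal scavenger protein with the largest gain in mean CPM among the called genes considered, had 5601, 7861, 6807 and 9008 CPM in Vehicle, against 2698, 3249, 2776 and 2890 CPM in Normal.

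Plet1 (chr9:50494525-50505482), a surface protein of progenitor cells in skin and other epithelia, was close to absent in Normal and abundant in Vehicle. It had 1344, 1524, 1914 and 1525 CPM in Vehicle, against 5.20, 12.4, 5.04 and 3.70 CPM in Normal. Replicates of Vehicle differed little beside the distance between groups (7.93 ± 0.62, SE, n = 4 each, edgeR adjusted p = 1.27e-08). Sprr1a, a cornified envelope protein, rose by 3.69. The other squamous markers were not called where testable (Krt13, Krt14, Krt17), and Krt4, Sprr3 and Ivl were at 0 in all 8 libraries.

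Regulators of the epithelium were mostly lower, with 17 of 28 down and 2 up (median -0.61). Vdr, the vitamin D receptor, fell by 1.59, Nr3c2, the aldosterone receptor, by 1.88, and Ppargc1a, a coactivator of mitochondrial genes, by 2.65. Hnf4a, a master regulator of enterocyte genes, fell by 0.65. Spdef, a goblet cell factor, rose by 0.89, whereas Atoh1, which sets the secretory fate, fell by 1.13. Cdx1 and Elf3 were held within 1.5-fold.

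**Figure D3:**
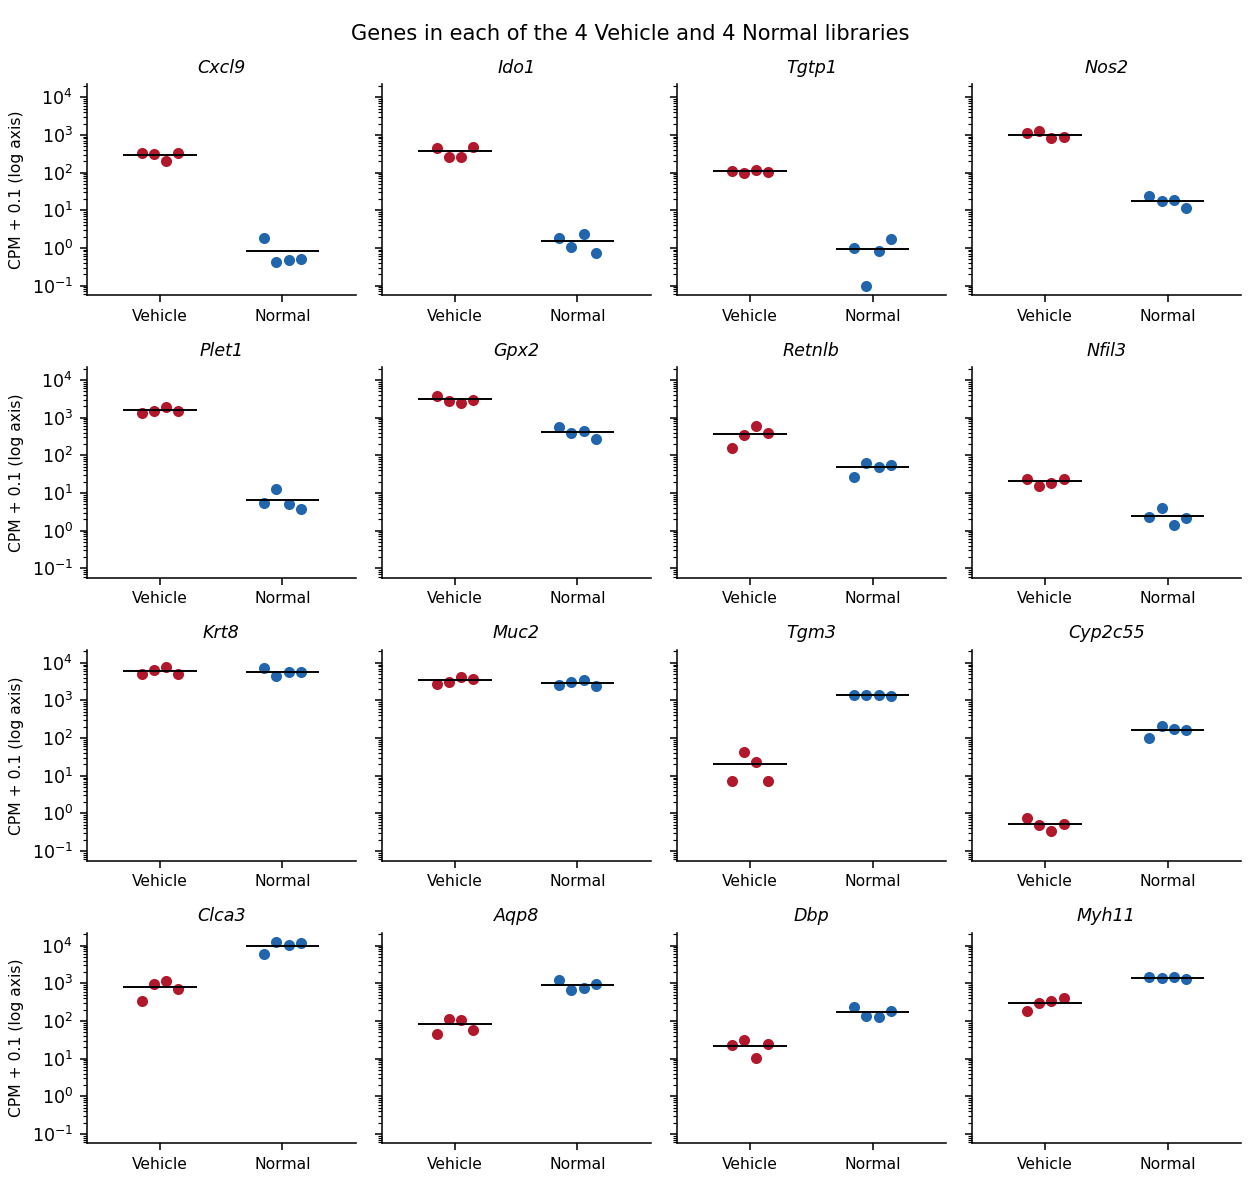
Points are the 4 Vehicle (left, red) and 4 Normal (right, blue) libraries in each panel, on a log axis of CPM plus 0.1, with the mean of each group as a bar. Groups do not overlap in any panel except Krt8 and Muc2, and Tgtp1 has no count in Normal replicate 2. For genes picked by an extreme log2 fold change, this separation was a condition of the choice.

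Enzymes that handle foreign compounds fell over a wide range. Of 20 cytochrome P450 genes 15 were lower and 2 higher (median -1.85). Cyp2f2 had 1.07, 2.09, 1.71 and 0.632 CPM in Vehicle, against 130, 115, 152 and 200 CPM in Normal, a fall of 6.78 on the log2 scale with no overlap. Members of the Cyp2c and Cyp2d families are close copies and may share reads. Of 31 conjugation enzymes 20 fell, led by the sulfotransferase Sult1a1 (-5.27), and the glutathione transferase Gsta4 rose (0.80). With the length offset 26 fell and none rose. In retinol metabolism 8 of 21 fell, among them Adh1 (-2.03), and 4 rose, among them the dehydrogenase Dhrs9 (3.93).

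Genes of fuel use changed. Of 19 genes for fatty acids and butyrate 15 fell and 1 rose (median -0.84). The gene that rose was a monocarboxylate carrier. Slc16a3, which exports lactate, had 131, 125, 108 and 93.1 CPM in Vehicle, against 14.9, 11.1, 11 and 9.26 CPM in Normal, whereas Slc16a1, which takes up butyrate, had 126, 104, 103 and 97.5 CPM in Vehicle, against 186, 305, 198 and 213 CPM in Normal. Both sets were free of overlap, with log2 fold changes of 3.26 ± 0.51 and -1.11 ± 0.20 (SE).

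In glycolysis 13 of 24 genes rose and 5 fell (median 0.42), and isoforms of a step differed in direction. Eno1, the common enolase, had 1164, 1231, 1436 and 1031 CPM in Vehicle, against 576, 354, 456 and 450 CPM in Normal. Eno3, the muscle enolase, had 42.4, 125, 91.4 and 51.0 CPM in Vehicle, against 733, 482, 551 and 629 CPM in Normal. The first rose by 1.37 and the second fell by 2.98, with no overlap in either. Hexokinases Hk2 and Hk3 rose by 1.49 and 4.02 while Hk1 was held (-0.04). Hypoxia targets were mixed, with 6 of 20 higher and 4 lower (median 0.15).

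Mitochondrial genes differed by where they are encoded. Of 24 genes of the tricarboxylic acid cycle and its feeder steps, 15 were held, 9 fell, of which 2 were also held, and 1 rose. Pck1, which makes phosphoenolpyruvate, was at -4.28. Nuclear genes of complex I were held in 21 of 37 (2 higher, 1 lower, median 0.06), and those of complexes III to V in 20 of 36 (3 higher, 2 lower, median 0.10). With the length offset these medians turned to -0.16 and -0.12, with 9 and 5 members lower. Of 12 proteins encoded in mitochondrial DNA 6 fell and none rose (median -0.66), and 10 fell with the offset. mt-Co1, a subunit of cytochrome oxidase, had 8289, 7416, 8330 and 9558 CPM in Vehicle, against 13816, 17739, 13938 and 21999 CPM in Normal (-1.06 ± 0.25, SE, edgeR adjusted p = 0.00142).

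Redox enzymes were higher for 13 of 25 and lower for 2. Gpx2 (chr12:76792333-76795554), the glutathione peroxidase of gut epithelium, had 3850, 2792, 2498 and 3026 CPM in Vehicle, against 567, 393, 444 and 279 CPM in Normal. Prdx6, a peroxidase that acts on phospholipids, had 813, 925, 763 and 833 CPM in Vehicle, against 2998, 3035, 3631 and 4702 CPM in Normal. These abundant peroxidases moved in opposite directions with no overlap, by 2.81 ± 0.41 and -2.16 ± 0.40 (SE). Slc7a11, which imports cystine for glutathione, rose by 3.48, while Gclc and Gclm, which make glutathione, were held. For iron, 10 of 16 genes rose, including the uptake receptor Tfrc (1.05), and the exporter Slc40a1 fell by 2.40.

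Genes of cell growth rose together. Of 26 replication fork genes 22 rose and none fell (median 0.92). Fen1, the flap endonuclease, had 78.5, 74.5, 73.4 and 71.4 CPM in Vehicle, against 37.0, 26.2, 21.8 and 14.0 CPM in Normal. Gins1, part of the replicative helicase, had 11.7, 9.86, 12.2 and 16.2 CPM in Vehicle, against 3.46, 3.28, 3.92 and 2.06 CPM in Normal. Neither gene's groups overlapped, with rises of 1.56 and 1.93. Serine synthesis, which feeds one-carbon units to nucleotides, rose at each step (Phgdh 2.26, Psat1 2.40, Psph 0.66, Shmt2 1.65, Mthfd2 2.21), and the list had 11 of 23 higher and 1 lower.

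Genes of ribosomes were higher in part. Ribosome biogenesis had 17 of 26 higher and none lower (median 0.65), with the processing proteins Nhp2 and Nop56 up 1.34 and 1.15. Cytosolic ribosomal proteins summed to 46775 to 52061 CPM in Vehicle and 34644 to 37342 CPM in Normal, and 31 of 75 rose, 44 were not called and none was lower (median 0.39). These mRNAs are short, and with the length offset 11 were higher, 2 lower and the median 0.17. p53 targets did not move as a group, with 3 of 20 higher and 4 lower, and Cdkn1a, Mdm2 and Sesn2 were held.

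Circadian clock genes differed between the groups. Of 19 clock genes and outputs 13 fell and 2 rose, with a median of -1.33. The clock is a loop in which Arntl and Clock drive Per, Cry and Nr1d genes, whose products shut it off, and Dbp, Tef and Hlf carry its output to other genes. Dbp (chr7:45705088-45710203) had 22.4, 31.1, 9.99 and 24.9 CPM in Vehicle, against 240, 138, 128 and 182 CPM in Normal. Nfil3, which binds the same sites as Dbp and represses them, had 23.2, 15.4, 18.5 and 24 CPM in Vehicle, against 2.16, 3.93, 1.31 and 2.06 CPM in Normal. The output activator was low and its competitor high in every Vehicle library, with log2 fold changes of -3.00 ± 0.46 and 3.12 ± 0.46 (SE, n = 4 each, edgeR adjusted p = 5.25e-05 and 2.31e-05).

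The arms of the loop itself were low as well. Nr1d1, the repressor of Arntl, had 66.5, 55.8, 48.5 and 63.8 CPM in Vehicle, against 354, 316, 308 and 319 CPM in Normal. Per3, a period gene, had 10.5, 15.9, 6.82 and 9.48 CPM in Vehicle, against 70.4, 36.7, 45.9 and 47.3 CPM in Normal. Tef had 38.8, 49.3, 13.6 and 26.8 CPM in Vehicle, against 211, 102, 147 and 179 CPM in Normal. In none of these did the groups overlap, and Vehicle replicate 3 was the lowest in all 3. Per1 fell by 0.86, Clock by 0.54 and Cry2 by 2.13, Cry1 rose by 0.54, and Arntl was not called (0.58). As sampling times are not known here, a difference in hour and a difference in clock function cannot be told apart.

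Muscle and nerve of the gut wall were lower. All 16 contractile genes of smooth muscle fell (median -1.64), with sums of 2294 to 4667 CPM in Vehicle and 9324 to 11935 CPM in Normal. Myh11, the smooth muscle myosin heavy chain, had 179, 303, 340 and 410 CPM in Vehicle, against 1449, 1388, 1450 and 1301 CPM in Normal (-2.22 ± 0.35, SE, edgeR adjusted p = 5.05e-05). Vehicle replicate 1 was the lowest and the groups were well apart. Pacemaker cells and pericytes had 6 of 10 lower and none higher, with the chloride channel Ano1 at -2.05. Of 17 neuron and glia genes 12 fell and 1 rose (median -1.75). Uchl1, a deubiquitinase of neurons, had 9.17, 2.66, 5.85 and 6.74 CPM in Vehicle, against 25.5, 29.8, 27.1 and 23.4 CPM in Normal. Tac1, the precursor of substance P, was the gene that rose, with 60.6, 129, 92.4 and 92.3 CPM in Vehicle, against 19.9, 16.1, 23.1 and 21 CPM in Normal (2.18 ± 0.62, SE).

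Other tissues around the colon moved with these lists. Adipocyte genes had 9 of 11 lower and none higher (median -2.94), with sums of 295 to 352 CPM in Vehicle and 714 to 903 CPM in Normal, and Adipoq, the adipocyte hormone, fell by 3.54. Of the list, Pck1 and Cfd also stand in others. Both testable skeletal muscle genes, Ckm and Acta1, fell, and red blood cell genes had none called of 5. How far the depth of tissue in each specimen enters the muscle, nerve and fat results was not tested.

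Signals from stroma to epithelium changed member by member. Hedgehog, a signal from epithelium to stroma, was lower in ligand and targets. Ihh, the ligand, fell by 1.14, and its targets Ptch1, Hhip and Gli1 fell by 1.48, 1.69 and 1.94. Gli1 had 3.41, 5.12, 5.61 and 4.63 CPM in Vehicle, against 18.4, 13.4, 23.7 and 14.6 CPM in Normal. Among BMP genes, which hold crypt cells back from growth, Bmp2 and Bmp3 fell by 1.91 and 2.66. Grem1, a BMP antagonist, had 179, 81.9, 49.0 and 196 CPM in Vehicle and 51.7, 48.8, 41.4 and 39.9 CPM in Normal. Grem1 rose (1.42 ± 0.46, SE, edgeR adjusted p = 0.0159), although Vehicle replicate 3 fell within the Normal range.

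Wnt genes had 8 of 19 lower and 1 higher (median -0.62). Lrp6, a Wnt co-receptor, had 47.4, 43.4, 38.8 and 39.2 CPM in Vehicle, against 116, 120, 115 and 131 CPM in Normal (-1.56 ± 0.18, SE, edgeR adjusted p = 5.92e-07). Its relative Lrp5 was held (0.22). Sfrp1, a soluble Wnt antagonist, rose, with 157, 88.4, 70.4 and 141 CPM in Vehicle, against 58.7, 50.8, 58.0 and 52.9 CPM in Normal. Fibroblast markers had 7 of 14 lower and 1 higher, whereas 7 of 12 genes of fibroblasts in inflammation rose, with the protease inhibitor Timp1 up 3.29 and the collagen cross-linker Lox up 2.62, and 3 fell, among them Acta2 and Postn. Genes of blood and lymphatic vessels went both ways, with 3 of 17 higher and 6 lower (median -0.43). Among those of lymphatic vessels Prox1, Flt4 and Lyve1 fell by 1.43, 1.18 and 1.05, Pdpn rose by 0.80, a call lost with the length offset, and Ccl21a was not called (0.21). Of blood vessel genes Plvap rose by 0.80 and Kdr and Pecam1 were held.

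**Figure D4:**
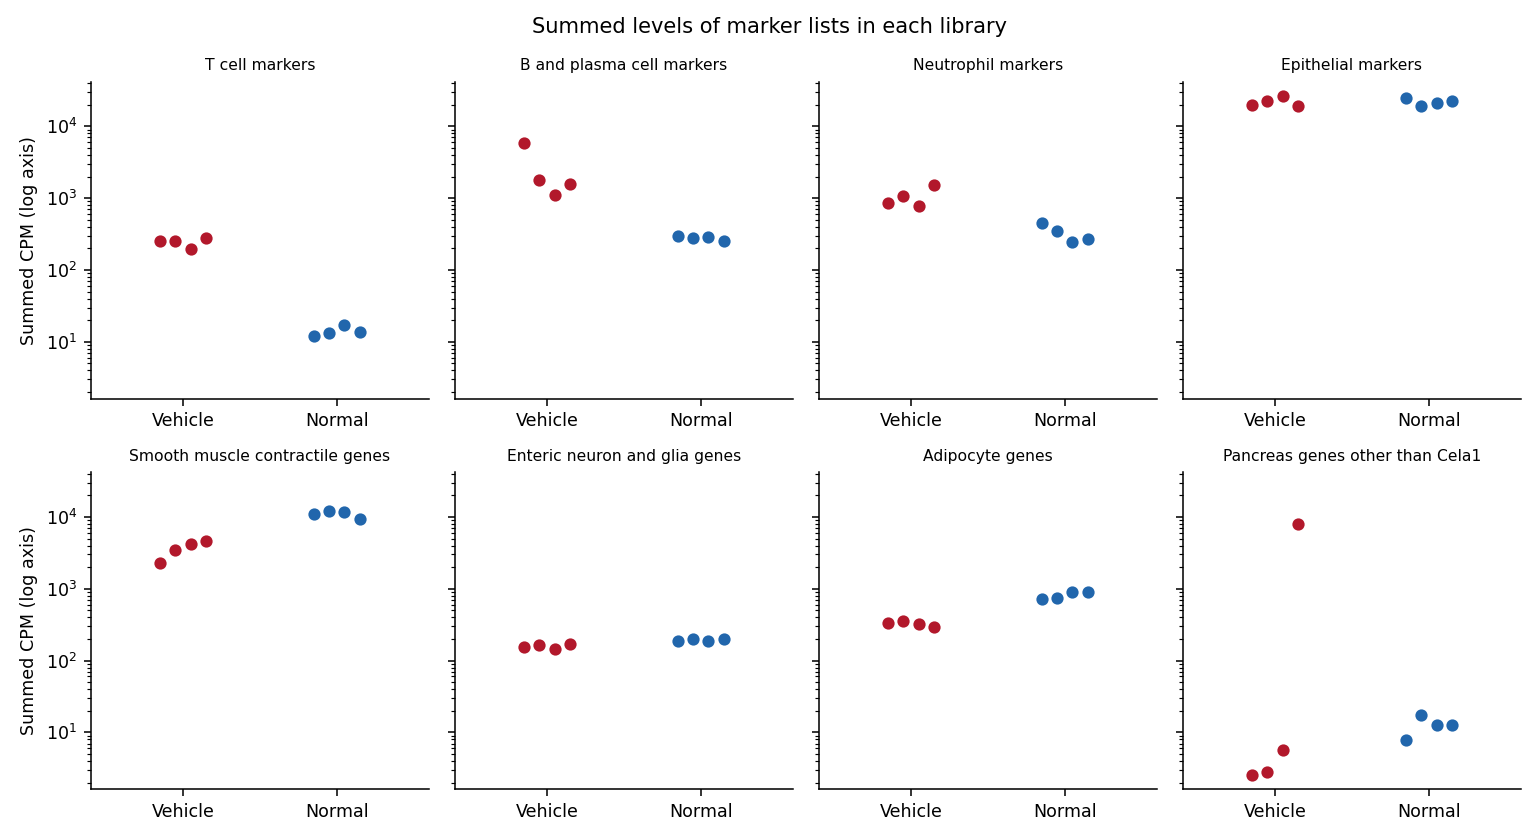
Points are summed CPM of 8 gene lists on a log axis, with the 4 Vehicle libraries left in red and the 4 Normal libraries right in blue. T cell, B and plasma cell and neutrophil sums are higher in Vehicle, epithelial sums overlap (19438 to 26374 against 19120 to 24630 CPM), muscle, nerve and fat sums are lower in Vehicle, and Vehicle replicate 4 stands alone with 7919 CPM of pancreas transcripts. In Normal, 1 gene makes up most of 2 sums, Ly6g for neutrophils (a mean of 312 of 330 CPM) and Xbp1 for B and plasma cells (264 of 279 CPM).

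Vehicle replicate 4 held transcripts of another organ. Pancreas genes other than Cela1, which colon also expresses, summed to 2.56, 2.85, 5.61 and 7919 CPM in Vehicle, against 7.79, 17.4, 12.5 and 12.5 CPM in Normal. Ctrb1, a digestive protease, had 0, 0.190, 0 and 1892 CPM in Vehicle and no count in Normal. Of 13 tested pancreas genes 9 were called higher, through this library. Without it none was, and 6118 genes were called over all. The pancreas results rest on 1 library.

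Transcript length also moved with the group. Genes with a mean of at least 1 CPM were ranked by length into 5 bins, and each gene's log2(CPM + 1) was taken relative to its mean over the 8 libraries. The median of the bin of longest genes minus that of the shortest was -0.17, -0.18, -0.41 and -0.24 in Vehicle and 0.21, 0.27, 0.36 and 0.21 in Normal on the log2 scale. The means were -0.25 ± 0.11 in Vehicle and 0.27 ± 0.07 in Normal (SD, n = 4 each), and the difference of -0.51 gave p = 0.0286 in a two-sided exact permutation test, the smallest that 4 against 4 allows (0.0381 after Benjamini-Hochberg adjustment over 4 library measures). With the tested genes in 5 such bins of 2921, 28.7% of the shortest were called higher and 10.6% lower, and of the longest 11.9% higher and 37.9% lower. The median log2 fold changes of these bins were 0.25 and -0.28.

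An offset that removes the trend within each library left most calls in place. It gave 3336 genes higher (22.6%) and 3162 lower (21.4%), of which 5755 had the same call without it (39.0% of tested genes), and none was called the opposite way. Calls found only without the offset numbered 1098 (7.43%), and those found only with it 743 (5.03%). In the bin of longest genes the shares became 22.2% higher and 23% lower. Among the 71 lists the median turned in sign for 4, complex I, complexes III to V, p53 targets and nuclear RNA, all close to 0. Krt20 and Ndufs8, called higher without the offset, were not called with it (0.39 and 0.15).

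**Figure D5:**
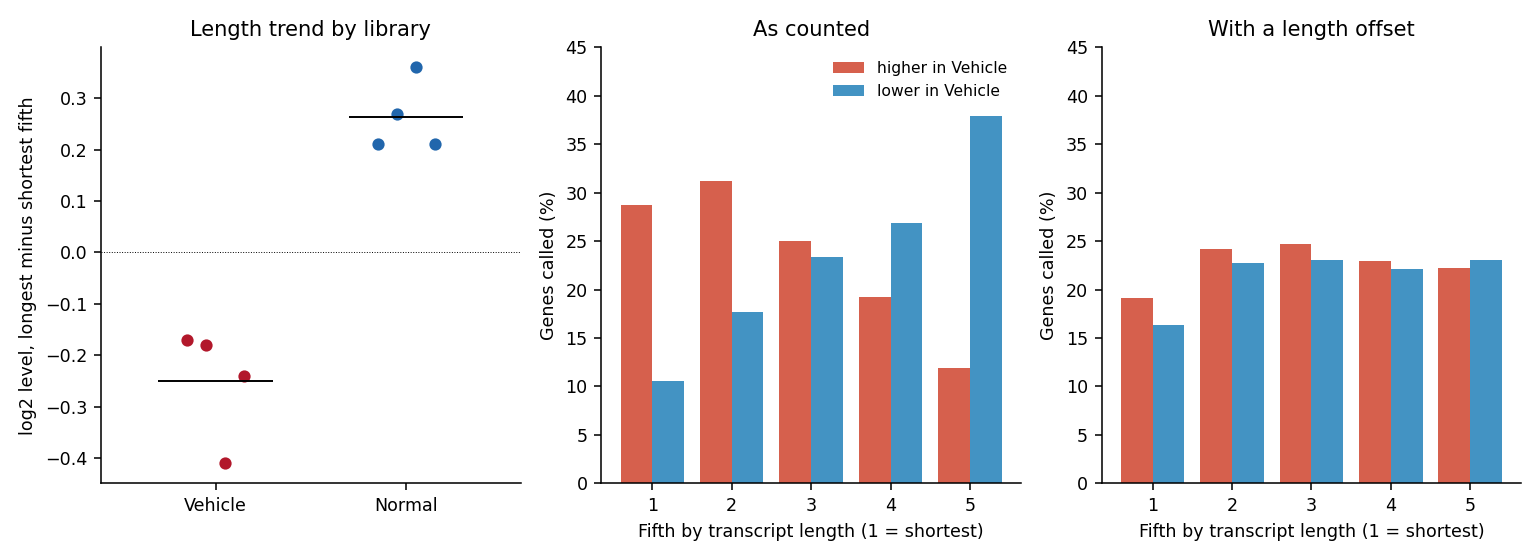
The left panel shows the length trend, the log2 level of the longest minus the shortest of 5 length bins, in each Vehicle and Normal library, with bars at the means. The other panels show the percent of genes called higher (red) or lower (blue) in Vehicle in each bin, as counted and with the length offset, which evens out the bins.

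The most abundant genes took a smaller share of counts in Vehicle. The 100 most abundant genes of a library took 22.0% ± 0.365 of counts in Vehicle and 25.9% ± 1.46 in Normal (SD, n = 4 each), and genes of mitochondrial DNA 2.90% ± 0.273 and 4.74% ± 1.29. Both differences gave p = 0.0286 in the exact test. The number of genes at 1 CPM or more was 15039 ± 330 in Vehicle and 15127 ± 245 in Normal (p = 0.800 in the exact test). Replicates of Vehicle varied about as much as those of Normal, with a biological coefficient of variation (spread beyond counting error) of 19.7% in Vehicle and 18.4% in Normal, or 15.7% without Vehicle replicate 4 and 14.4% without Normal replicate 2.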

How the data were processed

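Poly(A) RNA of mouse colon was fragmented with RNase III and sequenced on an Ion Torrent instrument, per the labels. The deposited files hold raw read counts per gene symbol, 43280 symbols in each, and mm10 is the build in the submitters' processing notes. The sources used here do not give the aligner, the counting tool or how strand was handled. Of these symbols 24489 had a count in the 8 libraries. No replicates were duplicates (chi-square per gene 6.26 to 16.1).

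The test across genes was edgeR 4.0.16 (R 4.3.3, filterByExpr by group, TMM factors of 0.947 to 1.04, robust quasi-likelihood fit of all 24 libraries, contrast Vehicle minus Normal, Benjamini-Hochberg adjustment over 14773 genes, threshold 0.05; common dispersion 0.0539). The prior count of the fitted log2 fold changes was 0.125. TREAT used a 2-fold limit. CPM is a count scaled to a library total of 1000000. Transcript length and gene positions came from GENCODE M21 (GRCm38), with lengths for 14605 tested genes, and offsets from a lowess fit with span 0.3. The fit was also run on simulated counts in which few genes changed and no length trend was added. That setting differs from these data, so the run does not check the calls made here.

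The 71 gene lists and the rule for named genes were chosen with earlier results of these data known. The rule took the 12 highest and 12 lowest log2 fold changes with a mean of at least 5 CPM, the 10 largest gains and losses in CPM, up to 4 members per list by p, 5 genes near absence in either group, the 8 most abundant held genes and the 6 most variable genes in either group. Further list members were named for their roles after their values were seen, and some genes are not reported here. Alternatives were other scalings, filters, fits (DESeq2 1.42.0, limma 3.58.1), a replicate block, thinning, length and GC offsets and leaving out each library. Leaving out Vehicle replicate 4 together with the length offset was added after seeing the data.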

Additional observations from a re-analysis of the deposited data

Results flagged for a closer look

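Dixon's criterion was applied to 153 groups of 4 libraries, from the genes printed by library with enough counts and the 4 library measures. In 12 groups a library stood apart from the other 3, where chance gives about 7.65 for independent groups not picked for their spread. Some of these genes were picked for a large spread within a group and some vary together, so the 2 numbers cannot be compared. Vehicle replicate 1 was high in Igha (2783 CPM) and Igkc (2647 CPM), and Normal replicate 3 in the same genes (6.91 and 7.28 CPM). Vehicle replicate 4 was high in Ctrb1 (1892 CPM) and in the lipase Cel (367 CPM), both pancreas genes. Vehicle replicate 3 was low in Cxcl9 (202 CPM) and high in Gsdmc2 (15.4 CPM). Normal replicate 1 was high in Socs3 (102 CPM), a cytokine feedback gene, and in the pyruvate carboxylase Pcx (276 CPM). Normal replicate 2 was high in Plet1 (12.4 CPM), and Normal replicate 4 was low in the centromere gene Cenpa (5.14 CPM).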

How the results depend on the processing

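Calls numbered 5611 to 8075 over the planned settings apart from the series table's names, lowest with libraries thinned to the smallest total and highest with limma-voom, and no gene called in the main fit was called the opposite way in any of them. Under the series table's names no gene differed in edgeR, with 0 higher and 0 lower and 455 at an unadjusted p under 0.05. Leaving out 1 library gave 5983 to 6614 calls, 2966 to 3376 of them higher and 3003 to 3239 lower, 1125 to 1317 beyond 2-fold and 2725 to 3025 held. It moved the length trend between -0.54 and -0.46, the share of the 100 most abundant genes between -4.28 and -3.27, that of mitochondrial genes between -2.22 and -1.34, the genes at 1 CPM between -208 and 31.6, and the spread between 15.7% and 21.1% in Vehicle and between 14.4% and 21.2% in Normal. Without a composition factor 54.4% of calls were higher, against 49.8%. The replicate numbers are not tied to a shared batch in the labels and same-numbered libraries did not deviate together, with correlations of 0.0244, -0.0318, -0.0231 and 0.0265. With the replicate number as a block, 6665 genes were called over 24 libraries and 6420 over the 8 alone, and 6354 with the block and the length offset.

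Of 6261 values of named genes, the series table's names and limma-voom not among them, 6193 kept their call and 64 lost it, in 16 genes. The pancreas genes Cpb1 and Cela2a turned to -0.55 and -2.54 without Vehicle replicate 4, the one library in which they were high, and to -0.54 and -2.73 with the length offset as well. Leaving out 1 library at a time, they ranged up to 10.16 and 8.87. Over the same settings, counts of list members moved beyond 1.5 times in 182 of 2394 values, which fall in 47 of 114 counts, most often in the higher members of the tricarboxylic acid cycle list. Ang4, Grem1 and other genes of few counts or uneven replicates have wide intervals, and 32.7% of tested genes were neither called nor held.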
